A study of Homo sapiens with 6 samples.

Results

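The genes described here are 10 targets of the transcription factor NF-kB, measured in the human prostate cancer line PC-3: the chemokines IL8, CXCL1, CXCL2, CXCL3, CXCL5 and CCL20, the cytokines IL6 and LIF, and the feedback inhibitors TNFAIP3 and NFKBIA. They were chosen by gene symbol, and all 10 have a row in a table of 18780 genes. Their mRNA was measured by RNA sequencing in 6 libraries. PC-3 cells received 2.5 µM trans-Gnetin H (TGH), a plant polyphenol built from resveratrol units, for 24 h (n = 3), or the solvent dimethyl sulfoxide (DMSO) for the same time (n = 3). All cells grew in DMEM/F12 medium with fetal bovine serum, and the study is titled as one of glucose deprivation by this compound. The samples are replicates of 1 cell line at 1 dose and 1 time. The labels do not say whether replicates were separate cultures, so p-values measure the spread between these samples, which may be technical.

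NF-kB is held in the cytoplasm by IkB proteins. Signals from cytokine and Toll-like receptors activate the IKK kinases, which mark IkB for destruction, and the freed NF-kB dimers enter the nucleus and bind short sites near their target genes. Among these targets are chemokines that attract neutrophils through the receptors CXCR1 and CXCR2, cytokines of the interleukin-6 family, and the pathway's own inhibitors. NFKBIA encodes IkB-alpha, which captures NF-kB again, and TNFAIP3 encodes A20, which edits ubiquitin chains and shuts off signalling upstream of IKK. PC-3 is known for NF-kB that is active without added stimulus and for secreting interleukin-8 and interleukin-6.

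The promoters show what these genes share. The 150 bases upstream of the transcription start are printed for the 6 genes that differed between the groups and have an entry in the promoter table (RefSeq, build GRCh38.p14), from position -150 to -1 before the first transcribed base. Capitals mark matches to the canonical 10-base NF-kB consensus or to GGAATTTCC, searched on both strands, and the matches can overlap.
IL8, chr4:73740419-73740568, plus strand: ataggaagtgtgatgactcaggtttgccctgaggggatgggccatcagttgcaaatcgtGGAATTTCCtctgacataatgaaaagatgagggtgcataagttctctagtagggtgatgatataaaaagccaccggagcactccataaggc
CXCL1, chr4:73869243-73869392, plus strand: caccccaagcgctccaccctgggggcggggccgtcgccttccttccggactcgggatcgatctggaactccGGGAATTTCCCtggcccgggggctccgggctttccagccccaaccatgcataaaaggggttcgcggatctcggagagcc
CXCL3, chr4:74038690-74038839, minus strand: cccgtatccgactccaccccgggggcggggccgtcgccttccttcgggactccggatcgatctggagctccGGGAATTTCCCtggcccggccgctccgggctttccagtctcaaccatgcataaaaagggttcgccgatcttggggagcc
IL6, chr7:22727050-22727199, plus strand: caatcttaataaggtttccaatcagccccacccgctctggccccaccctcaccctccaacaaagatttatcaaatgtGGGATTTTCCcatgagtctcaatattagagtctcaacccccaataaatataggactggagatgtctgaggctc
TNFAIP3, chr6:137867109-137867258, plus strand: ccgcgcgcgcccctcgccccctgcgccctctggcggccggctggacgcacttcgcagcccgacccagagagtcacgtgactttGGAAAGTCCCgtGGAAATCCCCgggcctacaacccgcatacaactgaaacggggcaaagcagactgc
NFKBIA, chr14:35404750-35404899, minus strand: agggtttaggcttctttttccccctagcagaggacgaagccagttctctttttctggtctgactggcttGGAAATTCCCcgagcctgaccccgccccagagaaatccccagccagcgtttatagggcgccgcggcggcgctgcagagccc

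RefSeq promoters were found for 9 of the 10 genes, all except LIF, and motifs were searched in 300-base windows from position -250 to +50. The NF-kB consensus matched in 8 of the 9, against 10.8% of all 27305 promoters of this length in the table. GGAATTTCC, which overlaps the consensus in all its matches here but that of IL8, was found in 6 of the 9 (IL8, CXCL1, CXCL2, CXCL3, CXCL5 and NFKBIA), against 0.472% of all promoters. In IL8 it lay at -91 to -83, in CXCL1 and CXCL3 at -78 to -70. TNFAIP3 held 2 matches to the consensus, at -67 to -58 and at -55 to -46, and IL6 held 1 at -73 to -64. The AP-1 sequence TGANTCA was found in IL8 alone of the 9 (-137 to -131, 7.76% of all promoters), and the C/EBP sequence TTGCNNAA in IL6 and CXCL2 (10.6% of all promoters). Only exact matches count, so a near match such as ttgcaaat, printed above for IL8, is not included. A TATAAA sequence was found in IL8 and CCL20 on the strand of the gene, and in NFKBIA on the opposite strand only (12% of all promoters, either strand). The 250 bases upstream of CXCL1 and of CXCL3 were 81.4% identical in a global alignment, those of CXCL1 and CXCL2 70.1%, and those of CXCL1 and IL8 44.3%. A match is a description of the letters in the window and does not show that the site was bound. The genes are known NF-kB targets and some of their promoters are alike, so the shares with a match describe them and are not a test.

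The deposited values are log2(TPM + 1), where TPM is a read share corrected for the length of the transcript, so that levels can be compared between genes. TPM does not preserve read numbers, so the depth is unknown. The listed TPM summed to 502380 to 518870 per library, less than a complete set of transcripts would give, and what makes up the rest is not known. DMSO replicates 1 and 2 listed 3074 and 3185 genes at 0, while the other 4 libraries listed 1342 to 1530. Of 9 epithelial and line markers with a row 7 reached a mean of 1 TPM, and their summed level was 1520 to 1559 TPM in DMSO and 1174 to 1180 TPM with TGH. The sum consists mainly of the keratins KRT8, which fell from 604 ± 13.9 to 424 ± 1.90 TPM (SD, n = 3 each), and KRT18, which fell from 578 ± 24.7 to 421 ± 2.95 TPM. EPCAM and VIM also fell, TMPRSS2 rose by 0.19 (limma adjusted p = 0.0434), and CDH1, with 49.6 ± 1.04 and 51.9 ± 0.849 TPM, was not called (adjusted p = 0.0787). Whether these shifts bear on the genes below was not tested. Of 8 leukocyte markers with a row, 0 reached a mean of 1 TPM, and their summed level was 0.328 to 0.525 TPM in DMSO and 0.556 to 0.610 TPM with TGH. The 5 endothelial markers summed to 0.389 to 0.417 TPM in DMSO and to 0.467 to 0.598 TPM with TGH. The 7 fibroblast markers summed to 4.31 to 5.48 TPM and to 4.44 to 4.79 TPM, and COL1A1 alone of them had a mean of 1 TPM or more over the 6 libraries. ACTA2 was at 0.550 ± 0.149 TPM in DMSO and at 1.12 ± 0.129 TPM with TGH. In RNA from a whole culture, fewer cells that make a transcript and less transcript per cell cannot be told apart.

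With TGH the 10 genes split rather than moving together. IL8 and CXCL1, the most abundant of them, fell 1.56-fold and 1.51-fold, while TNFAIP3, IL6 and CXCL3 rose. LIF and NFKBIA fell slightly. CXCL2 and CXCL5 were not called, and CCL20 was too low to be tested with the other genes. In numbers, 9 of the 10 passed the filter of a mean of 1 TPM, and of these 3 were called higher and 4 lower. A call is an adjusted p under 0.05 from limma with Benjamini-Hochberg adjustment over all 12018 genes kept. Among all genes tested 55.2% were called, 28.9% higher and 26.3% lower, so that a call alone is common in this comparison. The balance of directions depends on the scaling: 3479 genes were higher and 3156 lower as deposited, 3083 and 3630 with median scaling, and 2964 and 3643 with quantile normalization. The groups did not overlap in 7 of the 9, while this held for 64.4% of all genes tested. The median difference was 0.09 over the 9 and 0.02 over all genes, and 0 of the 9 differed by as much as 2-fold.

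**Figure D1:**
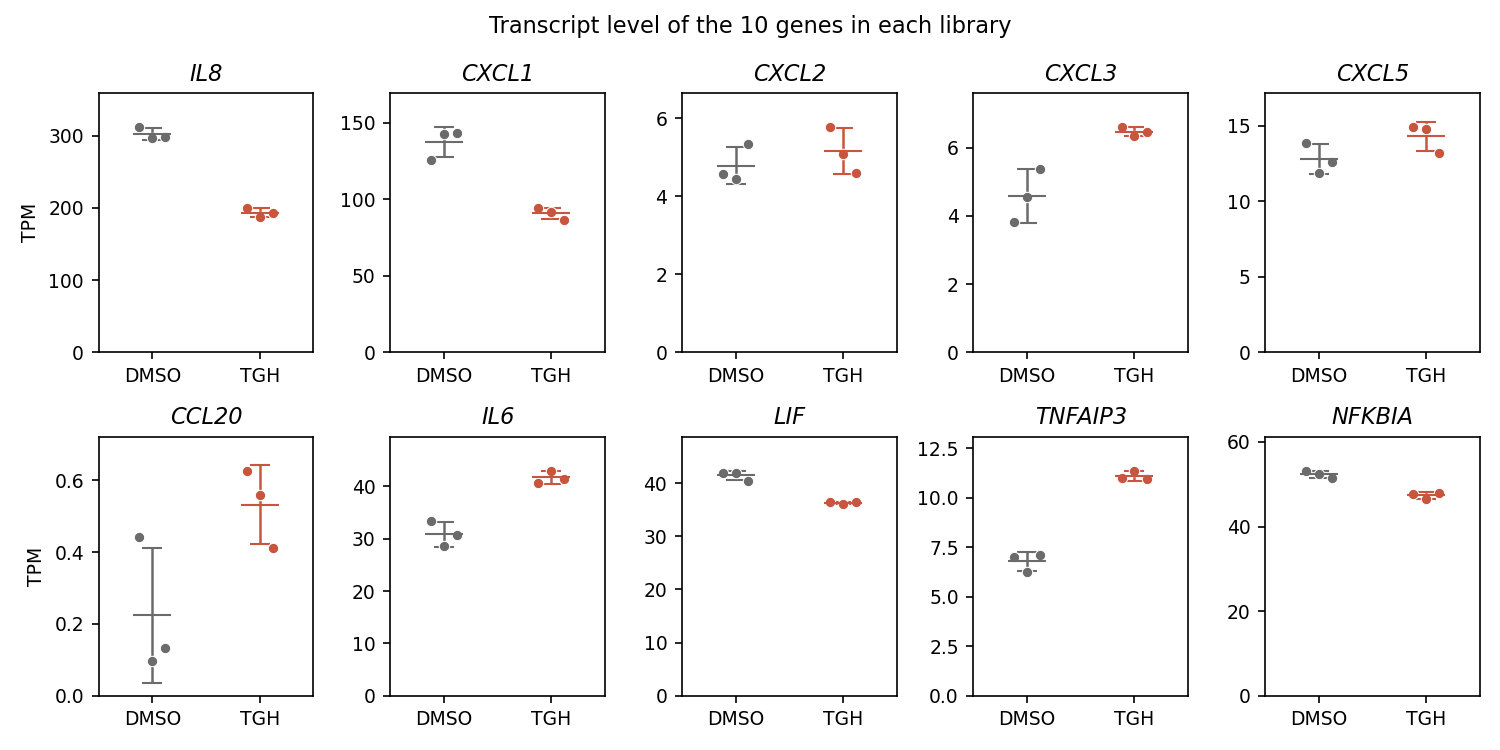
Level of each of the 10 genes in TPM (vertical axes, each from 0) in the 3 DMSO and the 3 TGH libraries. Dots are libraries in the order of replicates 1 to 3, and the bars are the mean and SD. IL8, CXCL1, LIF and NFKBIA lie lower in all TGH libraries than in any DMSO library, CXCL3, IL6 and TNFAIP3 lie higher, and the groups overlap for CXCL2, CXCL5 and CCL20.

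IL8 encodes interleukin-8 (CXCL8), the main neutrophil attractant of human epithelial cells. It was at 312, 297 and 298 TPM in DMSO replicates 1 to 3 and at 200, 188 and 193 TPM in TGH replicates 1 to 3. Every TGH library lay far below every control, with little spread in either group. On the log2(TPM + 1) scale IL8 fell by 0.64 (SE 0.031, limma adjusted p = 1.51e-05), which is 1.56-fold lower. It was the gene with rank 215 among the falls, and 6.4% of all genes tested had a larger difference in either direction.

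CXCL1, a close relative that uses the same receptor CXCR2, was at 126, 143 and 143 TPM in DMSO and at 94.2, 91.5 and 86.6 TPM with TGH. The groups were again well apart, with DMSO replicate 1 the lowest control. It fell by 0.59 (SE 0.057, adjusted p = 0.000228), 1.51-fold lower. IL8 and CXCL1 kept a similar proportion to each other: the ratio of their TPM was 2.48, 2.08 and 2.08 in DMSO and 2.12, 2.05 and 2.23 with TGH.

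CXCL3 went the other way, although its promoter is the one most like that of CXCL1. It was at 3.82, 4.55 and 5.39 TPM in DMSO and at 6.60, 6.36 and 6.47 TPM with TGH. The TGH libraries lie close together, the controls are spread, and the groups do not overlap. CXCL3 rose by 0.43 (SE 0.099, adjusted p = 0.01), or 1.35-fold. DMSO replicate 3, one of the libraries with few zeros, was the highest control, and against it as the only control the rise was 0.23 (adjusted p = 0.0226). With a pseudocount of 5 in place of 1 it was 0.26. Whether the zeros of the other controls bear on the difference was not tested. CXCL1 mRNA was 33.0, 31.4 and 26.6 times as abundant as CXCL3 mRNA in DMSO, and 14.3, 14.4 and 13.4 times with TGH.

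CXCL2, the third of these close relatives, was at 4.57, 4.45 and 5.33 TPM in DMSO and at 5.76, 5.08 and 4.59 TPM with TGH. The groups overlap, and the difference of 0.09 (SE 0.089, adjusted p = 0.438) was not called. Its sign turned with quantile normalization (-0.01) and against DMSO replicate 3 alone (-0.05), and it was 0.02 to 0.15 with 1 library left out. CXCL1, CXCL2 and CXCL3 also share stretches of transcript. Of the 50-base windows of their longest protein-coding transcripts (GENCODE 29), 5.73% of CXCL1, 9.24% of CXCL2 and 5.26% of CXCL3 occur unchanged in another gene of this family. Reads from there could be assigned to either gene, which makes the low values of CXCL2 and CXCL3 beside abundant CXCL1 less certain. For IL8 and CXCL5 0 windows were shared.

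CXCL5, an attractant of neutrophils made by epithelial cells, was at 13.9, 11.9 and 12.6 TPM in DMSO and at 14.9, 14.8 and 13.2 TPM with TGH. The lowest TGH library lies under the highest control. The difference was 0.15 (SE 0.068, adjusted p = 0.1) and was not called. Without DMSO replicate 1 CXCL5 was called higher (0.21, adjusted p = 0.0326). Leaving out any other library gave no call, with 0.20 without TGH replicate 3 (adjusted p = 0.057) and 0.10 without DMSO replicate 2 (adjusted p = 0.246).

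Summed over the 5 CXC chemokines, the level was 460, 461 and 465 TPM in DMSO and 322, 305 and 304 TPM with TGH. IL8 and CXCL1 together made up 95.2% ± 0.247 of this sum in DMSO and 91.6% ± 0.320 with TGH (SD, n = 3 each), so the sum follows these 2 genes. The share of CXCL3 went from 0.992% ± 0.165 to 2.09% ± 0.0372, and that of CXCL5 from 2.77% ± 0.221 to 4.61% ± 0.247. No test was made on the sum or the shares.

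**Figure D2:**
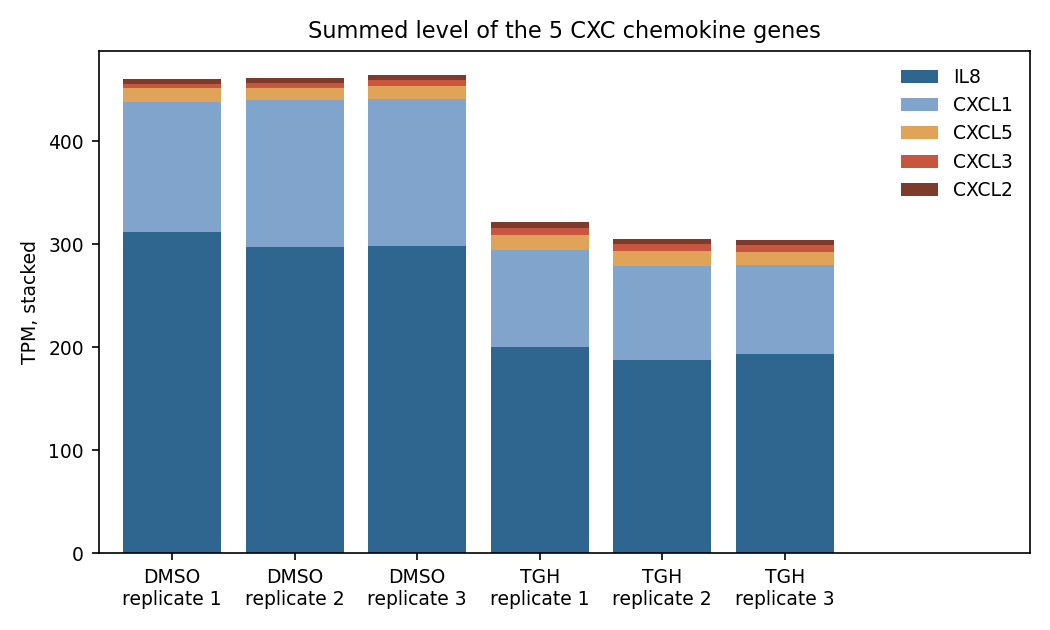
TPM of the 5 CXC chemokine genes stacked for each of the 6 libraries (vertical axis from 0). The stacks end between 460 and 465 TPM in DMSO and between 304 and 322 TPM with TGH, and IL8 and CXCL1 make up most of each.

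These 5 genes lie in a single cluster on chromosome 4, where the RefSeq order of protein-coding genes is IL8, CXCL6, PF4V1, CXCL1, PF4, PPBP, CXCL5, CXCL3 and CXCL2. The calls followed no uniform direction along the cluster. CXCL6, a chemokine beside IL8, had 28.95 ± 2.76 TPM in the controls and 25.95 ± 1.10 TPM after TGH, a difference of -0.15 (adjusted p = 0.107). DMSO replicate 3 carried much of this value: against it alone CXCL6 was called lower (-0.30, adjusted p = 0.0106), and without it the difference was -0.07 (adjusted p = 0.216). PF4 was not called, and PPBP and PF4V1 were below the filter.

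CCL20, the ligand of CCR6 that attracts dendritic cells and lymphocytes, was barely expressed. It was at 0.441, 0.0973 and 0.134 TPM in DMSO and at 0.627, 0.559 and 0.411 TPM with TGH. DMSO replicate 1 lies among the TGH libraries, and the other controls lie below them. In a fit without the filter the difference was 0.33 (SE 0.117, adjusted p = 0.0772) and was not called. Without DMSO replicate 1 it was called (0.46, adjusted p = 0.00844). At this level the offset sets the size, which was 1.10 with a pseudocount of 0.1 and 0.08 with 5.

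IL6 encodes interleukin-6, which signals through gp130 to the JAK kinases. It was at 33.4, 28.6 and 30.7 TPM in DMSO and at 40.7, 43.0 and 41.4 TPM with TGH. All TGH libraries were above all controls, and the gap between the groups exceeds the spread within them. IL6 rose by 0.42 (SE 0.056, adjusted p = 0.000926), 1.34-fold. IL8 mRNA was 9.35, 10.4 and 9.72 times as abundant as IL6 mRNA in DMSO, and 4.91, 4.36 and 4.67 times with TGH.

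LIF, leukemia inhibitory factor, also signals through gp130 but moved the other way. It was at 42.0, 42.0 and 40.5 TPM in DMSO and at 36.5, 36.2 and 36.4 TPM with TGH. The decrease was small and the spread smaller still. LIF fell by 0.19 (SE 0.026, adjusted p = 0.0012), and 49.9% of all genes tested differed by more in either direction. LIF was more abundant than IL6 in each DMSO library and less abundant in each TGH library.

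The feedback inhibitors split too. TNFAIP3 was at 7.02, 6.25 and 7.10 TPM in DMSO and at 11.0, 11.4 and 11.0 TPM with TGH. All TGH libraries lie well above the controls. TNFAIP3 rose by 0.64 (SE 0.053, adjusted p = 0.000114), 1.56-fold, and had rank 568 among the rises.

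NFKBIA was at 53.2, 52.4 and 51.4 TPM in DMSO and at 47.7, 46.5 and 48.0 TPM with TGH. The groups are close but do not overlap. It fell by 0.14 (SE 0.026, adjusted p = 0.00404), less than the difference of 60.5% of all genes tested. NFKBIA mRNA was 7.58, 8.39 and 7.25 times as abundant as TNFAIP3 mRNA in DMSO and 4.34, 4.09 and 4.38 times with TGH.

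By their mean TPM in DMSO the order was IL8, CXCL1, NFKBIA, LIF, IL6, CXCL5, TNFAIP3, CXCL2, CXCL3 and CCL20. The ranges of neighbours in this order overlapped only between CXCL2 and CXCL3. With TGH, IL6 stood before LIF and CXCL3 before CXCL2, and no neighbours overlapped. The highest of the 10, IL8, was at 303 ± 8.18 TPM in DMSO and the lowest, CCL20, at 0.224 ± 0.189 TPM (SD, n = 3 each).

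**Figure D3:**
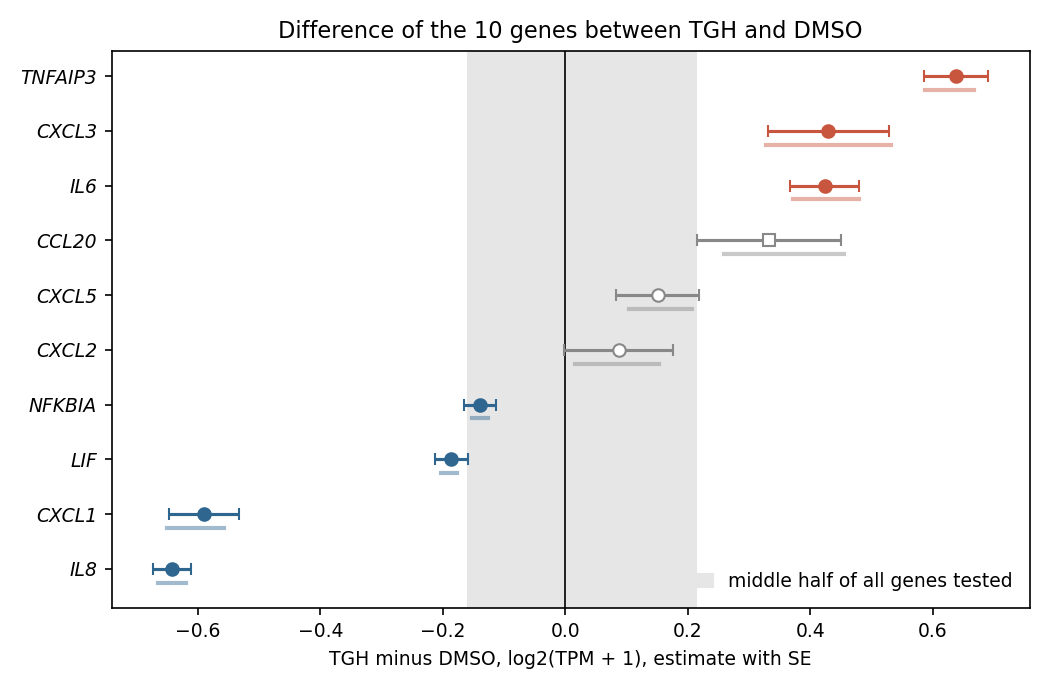
Difference between TGH and DMSO on the log2(TPM + 1) scale (horizontal axis) for each of the 10 genes, with its SE. Filled points were called, open circles were not, and the open square marks CCL20, fitted without the filter. The pale bars below the points span the values with 1 library left out, and the grey band runs from the lower to the upper quartile of all genes tested (-0.16 to 0.21). TNFAIP3, CXCL3, IL6 and CCL20 lie above that band with all their left-out values, and IL8, CXCL1 and LIF lie below it.

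The genes around these targets were described from 13 lists of the pathway. They hold 151 genes, of which 147 have a row and 112 passed the filter. Of the 112, 33 were called higher and 29 lower, or 55.4% in all, close to the 55.2% of all genes tested. With median scaling 29 were higher and 33 lower. Their median difference was -0.01. The counts of each list below stand beside 28.9% higher and 26.3% lower among all genes tested. For weakly expressed genes the size depends on the offset: with a pseudocount of 5 CTF1 had 0.27, CSF1 0.16, CSF2 0.19, IL1RAP 0.27, TLR2 0.26, TNFSF15 0.25, CYLD 0.27, IL17RA -0.11, NFKBIZ -0.09, OTUD7B -0.11 and PTGS2 -0.17, all still called. CTF1 had 1.48 with a pseudocount of 0.1. With quantile normalization CSF1 had 0.24, IL17RA -0.33 and NFKBIZ -0.24, and TAX1BP1 had 0.17 against DMSO replicate 3 alone.

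**Figure D4:**
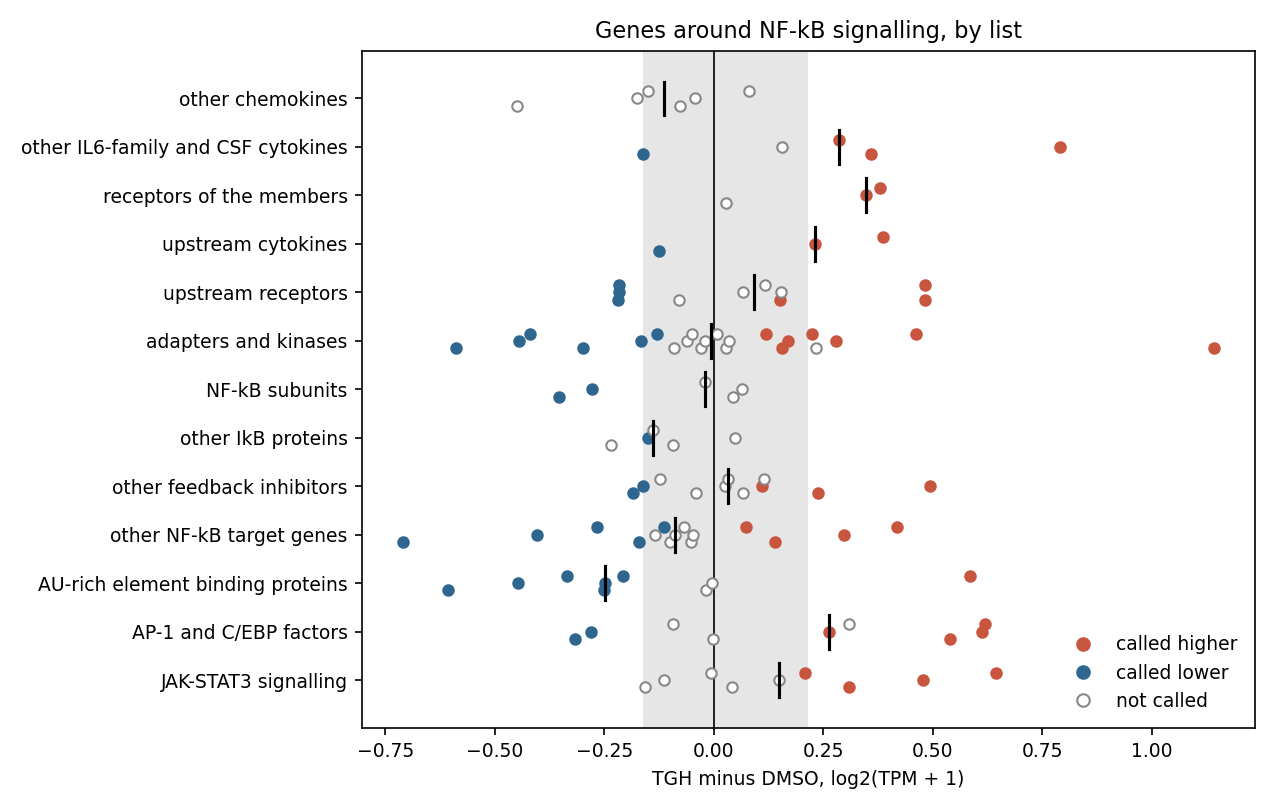
Difference between TGH and DMSO on the log2(TPM + 1) scale (horizontal axis) for the genes of the 13 pathway lists that passed the filter (vertical axis, points spread for legibility). Filled points were called, open points were not, black bars are medians, and the grey band runs from the lower to the upper quartile of all genes tested. RBCK1, at 1.14, lies furthest to the right.

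Among 6 other chemokines kept, 0 were called by limma, and 0 had an unadjusted p under 0.05. CCL5, an attractant of T cells, had -0.18 (adjusted p = 0.191), CCL26 -0.45 (adjusted p = 0.147) and CXCL16 -0.08 (adjusted p = 0.412). Leaving out DMSO replicate 1 put CXCL16 past the threshold (-0.16, adjusted p = 0.0143), as did DMSO replicate 3 as the only control (-0.17, adjusted p = 0.0432), while it had -0.03 without DMSO replicate 3 and -0.04 without DMSO replicate 2. CCL5 had -0.07 without DMSO replicate 1, and CCL26 had -0.23 without TGH replicate 2 and -0.27 without DMSO replicate 3. The other 8 with a row were below the filter. Among other IL6-family cytokines and colony stimulating factors 3 of 5 were higher and 1 was lower. CTF1, cardiotrophin, rose by 0.79 from 0.633 ± 0.323 to 1.79 ± 0.0291 TPM (SD, n = 3 each), CSF1 by 0.36 and CSF2, the growth factor GM-CSF, by 0.29 (adjusted p from 0.00447 to 0.0124). CLCF1 fell by 0.16 (adjusted p = 0.00786).

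Of the receptors of these ligands 3 passed the filter, all for cytokines. CXCR1, a receptor of interleukin-8, was at most 0.0282 TPM, and CXCR2 had no row under that symbol. CCR6 was at most 0.0202 TPM. Both are named because of these values. IL6R, which binds interleukin-6, rose by 0.38 from 6.83 ± 0.396 to 9.17 ± 0.185 TPM (adjusted p = 0.000747). IL6ST, the shared subunit gp130, rose by 0.35 from 12.8 ± 0.511 to 16.6 ± 0.585 TPM (adjusted p = 0.000653). LIFR had 0.03 (adjusted p = 0.759). Of 9 genes of the JAK-STAT3 list kept, 4 were higher, 0 lower and 5 not called, while 55.2% of all genes tested were called, 28.9% higher. PIM1, a kinase, rose by 0.64, SOCS3, a feedback inhibitor of gp130 signalling, by 0.48, TYK2 by 0.31 and JAK1 by 0.21 (adjusted p from 0.000185 to 0.00143). STAT3, which PC-3 is known to lack, was at 0 in 5 libraries and at 0.00293 TPM in TGH replicate 1. It is named here because of these values.

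Upstream of NF-kB the signals were mixed. Of the upstream cytokines 3 were kept: IL1B, interleukin-1 beta, rose by 0.23 from 28.2 ± 1.36 to 33.2 ± 0.818 TPM (adjusted p = 0.00346), TNFSF15 rose by 0.39 (adjusted p = 0.000797), and IL18 fell by 0.13 (adjusted p = 0.0135). For IL18 leaving out TGH replicate 2 or 3 ended the call (adjusted p = 0.0514 and 0.0533). TNF itself was at most 0.0143 TPM and is named because of its values. Of 10 upstream receptors 3 were higher and 3 lower. IL1RAP, the accessory chain of the interleukin-1 receptor, rose by 0.48 (adjusted p = 0.0017) and TLR2, a receptor of bacterial lipoproteins, by 0.48 (adjusted p = 0.00404). TNFRSF21, a death receptor, fell by 0.22 (adjusted p = 0.00068), and IL17RA had -0.22 (adjusted p = 0.0176), which ended on leaving out TGH replicate 2 or 3 or DMSO replicate 3 (adjusted p from 0.0508 to 0.0682) and against DMSO replicate 3 alone (adjusted p = 0.055).

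Of 22 adapters and kinases 7 were higher and 6 lower. RBCK1, a subunit of the LUBAC complex that builds linear ubiquitin chains, went from 20.2 ± 2.51 to 45.6 ± 1.30 TPM and rose by 1.14 (SE 0.085, adjusted p = 7.53e-05). Of the other LUBAC subunits, SHARPIN rose by 0.17 (adjusted p = 0.00329) and RNF31 fell by 0.13 (adjusted p = 0.0459). MAP3K14, the kinase NIK of the non-canonical pathway, fell by 0.59 from 18.9 ± 0.904 to 12.3 ± 0.511 TPM (adjusted p = 0.000106). IKBKE, an IKK-related kinase, fell by 0.42 and MYD88, the adapter of Toll-like and interleukin-1 receptors, by 0.30 (adjusted p = 0.000176 and 0.000539). Of the IKK complex itself, IKBKB rose by 0.46 from 5.24 ± 0.435 to 7.58 ± 0.306 TPM (adjusted p = 0.000997). CHUK and IKBKG were not called.

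Of the NF-kB subunits, NFKB1 and NFKB2, whose products are processed to p50 and p52, fell by 0.35 (adjusted p = 0.000467) and by 0.28 (adjusted p = 0.00121). Neither group pair overlapped. RELA had -0.02 (adjusted p = 0.725) and RELB 0.06 (adjusted p = 0.528), and neither was called. Of the other 5 IkB proteins NFKBIZ alone was called, lower by 0.15 (adjusted p = 0.0312), and leaving out any library but DMSO replicate 3 ended this call (adjusted p from 0.0529 to 0.101), as did DMSO replicate 3 as the only control (adjusted p = 0.186) and a fit without the filter (adjusted p = 0.0574). BCL3 had -0.23 (adjusted p = 0.0533), NFKBIE -0.09 (adjusted p = 0.396) and NFKBID -0.14 (adjusted p = 0.176). BCL3 was called without TGH replicate 3 (-0.31, adjusted p = 0.0225), under all 3 other scalings (-0.32 to -0.24, adjusted p from 0.0161 to 0.0351) and with robust variances (adjusted p = 0.0415). NFKBID was called with quantile normalization (-0.29, adjusted p = 0.0226), and NFKBIE without DMSO replicate 1 (-0.20, adjusted p = 0.00948) and against DMSO replicate 3 alone (-0.20, adjusted p = 0.0357). Other libraries moved them the other way: BCL3 had -0.14 without TGH replicate 2, NFKBID -0.08 without TGH replicate 3, and NFKBIE -0.04 without DMSO replicate 2 or 3.

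Of 11 other feedback inhibitors 3 were higher and 2 lower. CYLD, a deubiquitinase that like A20 restrains IKK, rose by 0.49 from 3.23 ± 0.0808 to 4.95 ± 0.10 TPM (adjusted p = 0.000174). ITCH and TAX1BP1, partners of A20, rose by 0.24 (adjusted p = 0.00101) and by 0.11 (adjusted p = 0.0223), the last no longer called on leaving out any single TGH library (adjusted p from 0.0592 to 0.0699) or with median scaling (0.07, adjusted p = 0.09). OTUD7B, another deubiquitinase, fell by 0.16 (adjusted p = 0.0123), and leaving out TGH replicate 3 ended the call (adjusted p = 0.0561).

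Of 15 other NF-kB target genes 4 were higher and 5 lower, with a median of -0.09. ICAM1, an adhesion molecule, rose by 0.30 from 10.9 ± 0.452 to 13.7 ± 0.695 TPM (adjusted p = 0.00238), and LCN2, a secreted siderophore-binding protein, by 0.14 (adjusted p = 0.00617). PTX3, a secreted pattern recognition protein, fell by 0.40 from 14.7 ± 0.616 to 10.9 ± 0.467 TPM (adjusted p = 0.000474), and PTGS2, the inducible cyclooxygenase, by 0.27 (adjusted p = 0.00577). The largest fall and rise of the list had higher p-values. BCL2A1 fell by 0.71 from 3.21 ± 0.827 to 1.55 ± 0.243 TPM (adjusted p = 0.00848), and CFLAR rose by 0.42 (adjusted p = 0.0162).

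Chemokine and cytokine mRNAs carry AU-rich elements, and the proteins that bind these act on decay, stability or translation. Of 9 such proteins 6 were lower and 1 was higher, with a median of -0.25, while 26.3% of all genes tested were lower and 28.9% higher. Because the actions of these proteins differ, the counts give no direction for how long the mRNAs last. HNRNPD, which encodes AUF1, fell by 0.61 from 112 ± 1.65 to 73.4 ± 0.810 TPM (adjusted p = 5.13e-06). KHSRP, a decay factor, fell by 0.45 and TIA1, a translational repressor, by 0.25 (adjusted p = 4.3e-05 and 0.00173). ZFP36L1, another decay factor, rose by 0.59 from 28.99 ± 0.0261 to 44.04 ± 1.498 TPM (adjusted p = 2.11e-05). ELAVL1, which stabilizes such mRNAs, fell by 0.33 (adjusted p = 0.00187).

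AP-1 and C/EBP factors are known to work beside NF-kB at some inflammatory promoters. Their binding was not measured here, and exact matches to the AP-1 or C/EBP sequence searched were found only in IL8, IL6 and CXCL2. Of 9 such factors kept 4 were higher and 2 lower. CEBPB rose by 0.62 from 15.2 ± 1.05 to 23.8 ± 0.666 TPM (adjusted p = 0.000127), CEBPG by 0.54 and ATF3 by 0.26 (adjusted p = 0.000174 and 0.000322). FOSL1, the AP-1 subunit FRA1 and the most abundant of them, fell by 0.28 from 283 ± 5.35 to 232 ± 5.69 TPM (adjusted p = 0.000161). Among other AP-1 subunits JUND rose by 0.61 from 8.24 ± 1.69 to 13.0 ± 0.407 TPM (adjusted p = 0.00651), and FOSL2 fell by 0.32 (adjusted p = 0.000399).

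The genes whose profile over the 6 libraries was nearest to that of IL8, by the root mean square difference of their centred log2 values, were RCC1 (0.024), CAV1 (0.025) and EPGN (0.027). Nearest to TNFAIP3 were FAM214B (0.017), UCA1 (0.027) and SLFN5 (0.029). With 2 groups of 3 libraries, this likeness rests mainly on the difference between the groups.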

How the data were processed

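Per the labels' protocols, total RNA of PC-3 cells was depleted of ribosomal RNA, and libraries were made with a directional kit. The authors deposited 1 table of log2(TPM + 1) values, with a row per gene symbol and a column per library. Its smallest value is 0. Per the submitters' processing notes, hg19 served as the build. The sources used here name no aligner, quantifier, annotation or filter.

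A mean of 1 TPM or more over the 6 libraries was required, which 12018 of 18780 genes met. TGH and DMSO libraries were compared on the deposited scale with limma 3.58.1 in R 4.3.3 (moderated variances with a trend, two-sided). Benjamini-Hochberg adjusted p-values cover all 12018, with a threshold of 0.05. Differences on this scale come out too small for weakly expressed genes. The 10 genes and all lists were chosen with earlier results of these data known. Named are the 10 genes, up to 4 genes of each list with the smallest p, and the 3 profiles nearest to IL8 and TNFAIP3. Neighbours in the chemokine cluster, markers and a few genes near 0 (CXCR1, CCR6, TNF and STAT3) are named outside this rule. So are IKBKB, CHUK, IKBKG, SHARPIN, RNF31, BCL2A1, CFLAR, ELAVL1, JUND and FOSL2, for which the alternatives are not given. Promoters came from RefSeq (GRCh38.p14) and transcripts from GENCODE 29, for sequence only, and were aligned with biopython 1.88. Figures were drawn with matplotlib 3.10.9. Alternatives were pseudocounts of 0.1 and 5, no filter or 5 TPM, 3 other scalings, other variance models, a replicate block, leaving out each library, and DMSO replicate 3 as the only control.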

Additional observations from a re-analysis of the deposited data

How the results depend on the processing

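Each of the 7 called genes among the 10 kept its direction and its call under all 17 alternatives. The values ranged from -0.68 to -0.62 for IL8, from -0.65 to -0.56 for CXCL1, from 0.23 to 0.53 for CXCL3, from 0.37 to 0.48 for IL6, from -0.22 to -0.15 for LIF, from 0.45 to 0.70 for TNFAIP3 and from -0.17 to -0.10 for NFKBIA. The highest adjusted p (limma) among these was 0.0421, for NFKBIA against DMSO replicate 3 alone. CXCL2 reversed under quantile normalization (-0.0081) and against DMSO replicate 3 alone (-0.046). With 1 library left out, 3 or 4 of the 9 that passed the filter were called higher and 4 lower. CCL20, fitted without the filter, was called higher without DMSO replicate 1.

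Of the 50 list genes that the rule on the smallest p names, LIFR, RELA and RELB, none of them called, changed sign. LIFR had -0.13 under quantile normalization, and -0.0098 to 0.055 with 1 library left out. RELA had 0.0089 under quantile normalization, and -0.042 to 0.020 with 1 library left out. RELB had -0.041 against DMSO replicate 3 alone, and -0.025 to 0.12 with 1 library left out. The causes were not tested.

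The labels do not say whether same-numbered samples belong together. The deviations of same-numbered libraries from their group means correlated at 0.01, 0.05 and 0.23, and not every library correlated best with its own number. Deviations from a mean of 3 libraries are tied to each other, so these correlations cannot decide whether the samples are paired. With the replicate block 3273 genes were called higher and 2958 lower, against 3479 and 3156 without it. Among the 10 genes CCL20 alone changed side, and was called at 0.33 (adjusted p = 0.0436). Over all list genes the block gave 34 higher and 24 lower, against 33 and 29. Among the 50 named by the rule, CCL26 gained a call (adjusted p = 0.0487), and IL17RA and NFKBIZ lost theirs (adjusted p = 0.0522 and 0.0812). Against DMSO replicate 3 alone, the spread of the single control was taken from the TGH libraries. Depth is not known, and it limits CCL20, CXCL2 and CXCL3 most.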
